A study of Mus musculus with 9 samples.

Results

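The NF-κB genes described here are 10 rows of a table of raw read counts over 23955 gene symbols, chosen by symbol. They comprise all 5 NF-κB subunits (Rel, Rela, Relb, Nfkb1 and Nfkb2), the inhibitors Nfkbia and Tnfaip3, the target genes Birc3 and Icam1, and the receptor Tnfrsf12a. RNA was sequenced from gut epithelial organoids, which are gel cultures of epithelium grown without stroma in a medium holding Noggin, EGF, bFGF, R-spondin1 and B27. All 3 groups carried the APCmin/+ genotype, a germline mutation of 1 Apc allele that gives mice intestinal polyps, and each group had 3 samples. MIN organoids came from normal-appearing gut epithelium, adenoma organoids came from adenomatous polyps, and the sulindac group were adenoma organoids treated with sulindac, a non-steroidal anti-inflammatory drug (NSAID). The dose and duration of sulindac in the organoids, the vehicle of the untreated cultures, and the age of the mice are not given in the sources used here, and no untreated wild-type group was analysed here. The 3 samples of each group are described as biological replicates, and nothing says which cultures shared an animal, so p-values measure the spread between these samples.

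NF-κB is a family of dimeric transcription factors that is held in the cytoplasm by IκB proteins. In the canonical route, receptors for TNF, IL-1 or bacterial products activate the IKK kinases, IκBα (Nfkbia) is degraded, and dimers of p65 (Rela) with p50 (made from Nfkb1) enter the nucleus. In the non-canonical route, receptors such as that for lymphotoxin lead to processing of p100 (Nfkb2) to p52, which pairs with RelB. Several of the genes that NF-κB switches on, among them Nfkbia and Tnfaip3, restrain it in turn, and in gut epithelium the pathway is known for its part in barrier defence and survival. Activation is largely a matter of protein location, which mRNA counts do not measure.

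The DNA sequence that NF-κB dimers bind is called a kappa B site, and some of these genes carry it next to their start. RefSeq promoter windows (build GRCm38.p6, 250 bases before to 50 after the start) were found for 8 of the 10 genes, 11 windows in all. The kappa B consensus of 10 bases, searched on both strands, occurred in 6 of these windows, which belong to Rel, Nfkb2, Nfkbia and Tnfaip3, at 8 separate stretches. It occurred in 4.51% of all 32851 windows of this length. The 6 windows belong to 4 of the 8 genes, as Nfkb2 has more than 1 window, and overlapping windows of Nfkb2 share a match. No match was found in the windows of Rela, Birc3, Icam1 and Tnfrsf12a. The 160 bases before the start are shown for 1 window of each gene with a match, with the matching bases in capitals, to let the arrangement be read beside the expression values. Rel (chr11:23770970-23771129, minus strand), Nfkb2 (chr19:46304577-46304736, plus strand), Nfkbia (chr12:55492648-55492807, minus strand) and Tnfaip3 (chr10:19015411-19015570, minus strand) are followed by Icam1 (chr9:21015780-21015939, plus strand), the gene of the 10 with the largest difference between groups, in which the capitals mark a shorter motif, GGANNTTCC.
Rel: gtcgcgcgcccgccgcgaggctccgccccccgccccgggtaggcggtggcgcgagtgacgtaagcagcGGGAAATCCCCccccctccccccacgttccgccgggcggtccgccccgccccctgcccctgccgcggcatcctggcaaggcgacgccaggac
Nfkb2: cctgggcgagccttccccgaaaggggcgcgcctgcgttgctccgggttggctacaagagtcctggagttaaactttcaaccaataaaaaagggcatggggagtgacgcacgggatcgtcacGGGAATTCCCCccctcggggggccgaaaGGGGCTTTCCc
Nfkbia: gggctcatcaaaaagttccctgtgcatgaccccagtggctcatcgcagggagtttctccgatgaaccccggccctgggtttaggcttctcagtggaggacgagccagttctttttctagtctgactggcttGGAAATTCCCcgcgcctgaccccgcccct
Tnfaip3: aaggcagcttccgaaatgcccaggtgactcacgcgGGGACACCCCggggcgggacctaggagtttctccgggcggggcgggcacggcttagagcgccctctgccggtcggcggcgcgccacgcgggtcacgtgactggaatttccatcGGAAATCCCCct
Icam1: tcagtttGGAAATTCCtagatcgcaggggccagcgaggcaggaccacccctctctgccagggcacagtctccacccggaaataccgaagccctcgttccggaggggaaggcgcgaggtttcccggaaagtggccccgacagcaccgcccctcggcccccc
In Rel the matching run begins 92 bases before the start. Nfkb2 has a run at position -39 and another at -11, Nfkbia has 1 at -29, and Tnfaip3 has matches at -125 and -12. The shorter motif in Icam1 lies at -153. That motif, chosen after the windows had been read, occurred in 5 of the 11 windows and in 4.26% of all windows, and it overlaps the consensus match of Nfkbia. The looser pattern GGGNNNNNCC, which contains the consensus, was found in all 11 windows and in 50.8% of all windows. These matches describe letters in a window and no binding was measured.

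The samples held 30881206 to 48412477 counts, and a floor of 3 counts per sample, below which no level is read, equals 0.0641 to 0.10 CPM (counting error only). Levels are in CPM, the counts of a gene scaled to the library total after TMM normalization. Groups were compared by the quasi-likelihood test of edgeR, and p-values were adjusted by the Benjamini-Hochberg method over all genes tested, with a threshold at a false discovery rate (FDR) of 1%. Epithelial markers were abundant in every group, with a summed level over 7 genes of 5563 to 8070 CPM over MIN samples, 3339 to 4350 over adenoma and 4581 to 5499 over sulindac samples. Of the markers of other cell types, Emr1, Col1a2, Col3a1, Dcn and Lum had no count in any sample. Others were counted, among them Cd68 (284 to 560 counts) and Vwf (95 to 244) in adenoma. Itgam had 148 to 159 counts and Pdgfrb 127 to 176 in MIN. These are described with Icam1 below.

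All 10 genes had enough counts to be tested in each comparison. Between adenoma and MIN organoids, Rela and Icam1 were higher and Birc3 was lower in adenoma. That is 2 of 10 genes higher, where 18.5% of the 13744 genes tested were higher, and 1 of 10 lower, where 20.1% were lower. Between sulindac-treated and untreated adenoma organoids, Nfkb2 and Icam1 were lower after treatment and no gene was higher, where 9.10% of the 12962 genes tested were lower and 8.32% were higher. Between sulindac-treated adenoma and MIN organoids, Rela and Icam1 were higher and Rel, Nfkb1 and Birc3 were lower, where 23.0% of the 13551 genes tested were higher and 26.8% were lower. The counts out of 10 lie near these background shares, and the median log2 fold change of the 10 genes was -0.27, -0.11 and -0.42 in the 3 comparisons, against -0.01, -0.01 and -0.03 over all genes. The comparisons share samples and are not independent.

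**Figure D1:**
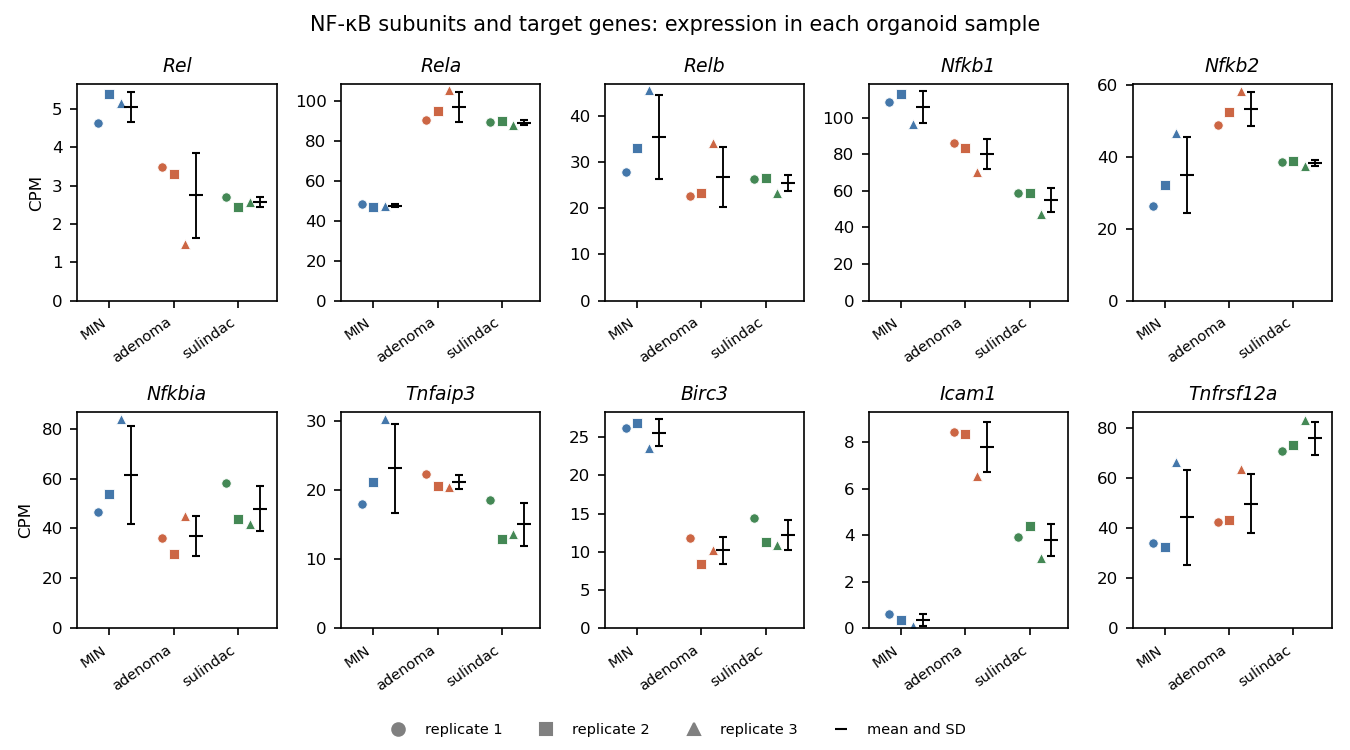
Expression of the 10 NF-κB genes in each organoid sample (y-axis, CPM from 0, a separate scale for each gene; x-axis, group). Points are samples, with the symbol giving the replicate number, and the bar is the mean with its SD (n = 3). Rela is near 47 CPM in all MIN samples and above 87 CPM in all others, while Icam1 is below 1 CPM in MIN and between 3.02 and 8.42 CPM in the others.

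Rela encodes p65, the subunit with the main activating domain of the canonical dimer. It was measured at 48.2, 46.9 and 47.3 CPM in MIN replicates 1 to 3, 90.3, 95 and 105.1 CPM in the adenoma samples, and 89.5, 89.9 and 87.5 CPM after sulindac. The MIN samples lay close together and far below all 6 others. Rela rose by 1.03 on the log2 scale between MIN and adenoma (standard error 0.10, edgeR adjusted p = 4.5e-05) and was 0.90 higher in sulindac samples than in MIN (standard error 0.07, edgeR adjusted p = 8.86e-06). Between sulindac and adenoma its log2 fold change was -0.11, with a 95% interval of -0.32 to 0.09 (adjusted p = 0.365 by edgeR). Although the 3 treated samples were below the 3 untreated ones, this difference was not past the threshold. In bulk RNA of this kind, fewer cells that express a gene and less RNA per cell cannot be told apart.

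Nfkb1 encodes p105, the precursor of p50, the usual partner of p65. It was at 108.7, 113.3 and 96.4 CPM in the MIN samples, at 85.9, 83.5 and 70.5 CPM in adenoma and at 58.8, 59.1 and 47.6 CPM after sulindac. The 3 groups did not overlap, and MIN was highest and sulindac lowest. Only the step across both ends passed the threshold, with Nfkb1 lower by a log2 fold change of -0.95 in sulindac samples than in MIN (standard error 0.11, edgeR adjusted p = 9.25e-05). From MIN to adenoma its log2 fold change was -0.41 (95% interval -0.67 to -0.14, adjusted p = 0.0180, edgeR), a difference that passed with DESeq2 (adjusted p = 0.00621). From adenoma to sulindac it was -0.53 (95% interval -0.82 to -0.24, adjusted p = 0.0127, edgeR). The latter also passed with DESeq2 (adjusted p = 0.00168) and when adenoma replicate 3, the lowest of its group, was left out (edgeR adjusted p = 0.00304). Adenoma against MIN stayed uncalled in 15 of 17 alternative settings and sulindac against adenoma in 8 of 15. With 1 sample left out their edgeR adjusted p reached 0.0778 and 0.0562.

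Rel encodes c-Rel, a subunit best known from lymphocytes. Its levels were low at 4.62, 5.38 and 5.15 CPM in the MIN samples, 3.48, 3.30 and 1.47 CPM in adenoma and 2.70, 2.45 and 2.56 CPM after sulindac. Every MIN sample was above all others. Rel was lower in sulindac samples than in MIN by a log2 fold change of -0.98 (standard error 0.18, edgeR adjusted p = 0.00158), while a single model of all 9 samples gave an adjusted p of 0.0120. Adenoma against MIN gave -0.87 (95% interval -1.59 to -0.15, adjusted p = 0.0451, edgeR), a wide interval over adenoma samples of which replicate 3 lay far below the other two. Sulindac and adenoma overlapped (log2 fold change -0.10, 95% interval -0.84 to 0.65, edgeR adjusted p = 0.843).

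The subunits of the non-canonical route were Nfkb2 and Relb. Nfkb2, whose p100 product both inhibits RelB and is the source of p52, was at 26.2, 32.1 and 46.7 CPM in the MIN samples, 49.1, 52.7 and 58.6 CPM in adenoma and 38.7, 39.0 and 37.5 CPM after sulindac. Every adenoma sample was above all others, and the treated samples lay within the MIN range. Nfkb2 fell with sulindac by 0.47 on the log2 scale (standard error 0.10, edgeR adjusted p = 0.00722). The call was lost when any one of the sulindac samples or adenoma replicates 1 or 2 was left out (adjusted p from 0.0111 to 0.0399), without the low-count filter (adjusted p = 0.0104) and in a single edgeR model of all 9 samples (adjusted p = 0.0589). Between adenoma and MIN its log2 fold change was 0.61 (95% interval 0.16 to 1.07, edgeR adjusted p = 0.0303). With the replicate number as a block, a pairing taken from these data and not from the labels, Nfkb2 was higher in adenoma (log2 fold change 0.65, edgeR adjusted p = 0.00788). It also passed without MIN replicate 3, the highest MIN sample (log2 fold change 0.87, adjusted p = 0.00168, edgeR). In 13 of 17 alternative settings it stayed uncalled, among them DESeq2 (adjusted p = 0.0136). With 1 sample left out its edgeR adjusted p reached 0.0992. Of the 50-base stretches of Nfkb2 transcripts, 14.9% also lie in transcripts of other genes on either strand, among them the opposite-strand neighbour Psd, and whether counting used strand is not stated.

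Relb, the partner of p52, was at 27.8, 33.0 and 45.6 CPM in the MIN samples, 22.7, 23.3 and 34.2 CPM in adenoma and 26.3, 26.5 and 23.4 CPM after sulindac. MIN and adenoma overlapped, and in both of them replicate 3 was the highest. The log2 fold change was -0.41 for adenoma against MIN (95% interval -0.91 to 0.10, edgeR adjusted p = 0.154). It was -0.06 for sulindac against adenoma (95% interval -0.43 to 0.30, edgeR adjusted p = 0.788) and -0.48 for sulindac against MIN (95% interval -0.87 to -0.10, adjusted p = 0.0344). Without MIN replicate 1 the last of these passed the threshold (log2 fold change -0.63, edgeR adjusted p = 0.00723). It stayed uncalled in 15 of 17 alternative settings, with an edgeR adjusted p of up to 0.112 when 1 sample was left out.

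Dividing CPM by the length of the longest coding transcript, 2209 bases for Relb to 7466 bases for Rel, allowed the subunits to be set against each other. On this scale Nfkb1 made up 37.5% ± 5.25 (SD, n = 3) of subunit mRNA in MIN organoids, 24.0% ± 3.76 in adenoma and 19.7% ± 1.49 after sulindac. Rela made up 25.4% ± 2.11 in MIN, 43.7% ± 0.893 in adenoma and 48.2% ± 1.52 after sulindac. Nfkb1 was thus the most abundant subunit mRNA in all MIN samples and Rela in all other samples. The ratio of Rela to Nfkb1 per kilobase was 0.672, 0.628 and 0.744 in MIN, 1.59, 1.72 and 2.26 in adenoma and 2.31, 2.31 and 2.79 after sulindac, so that MIN stood apart and the sulindac values began just above the highest adenoma value. The other shares moved less. Relb held 23.0% ± 4.23, 14.8% ± 2.68 and 16.9% ± 0.419, Nfkb2 held 13.0% ± 2.95, 17.0% ± 0.566 and 14.7% ± 0.368, and Rel stayed under 1.1% of the family in every sample. Summed over the 5 genes, the level was 69.1 ± 5.07 CPM per kilobase in MIN, 81.4 ± 4.74 in adenoma and 68.0 ± 3.05 after sulindac (SD, n = 3 each). Shares of a whole are linked, so a larger share of one subunit lowers the others. Without division by length Nfkb1 was the largest in MIN (46.5%) and Rela in adenoma (37.2%) and sulindac samples (42.3%), as with it.

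**Figure D2:**
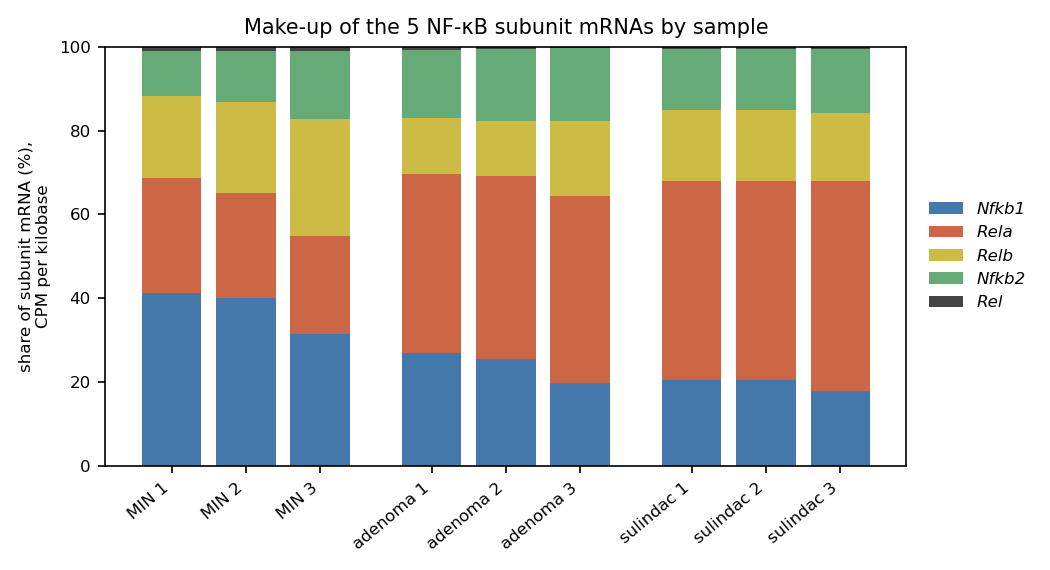
Share of each NF-κB subunit in the summed subunit mRNA of each sample (y-axis, percent of CPM per kilobase; x-axis, sample; colours, genes). The Rela segment is 25.4% on average in MIN, 43.7% in adenoma and 48.2% in sulindac samples, and the Nfkb1 segment shrinks from 37.5% to 24.0% and 19.7%.

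Nfkbia encodes IκBα, the inhibitor that is degraded and made again with each canonical response. It was at 46.8, 53.8 and 83.8 CPM in the MIN samples, 36.1, 29.6 and 45.2 CPM in adenoma and 58.3, 43.8 and 41.7 CPM after sulindac. All adenoma samples were below all MIN samples, and the sulindac samples overlapped both groups. The log2 fold change between adenoma and MIN was -0.73 (95% interval -1.27 to -0.19, edgeR adjusted p = 0.0286). With the replicate number as a block Nfkbia was lower in adenoma (log2 fold change -0.71, edgeR adjusted p = 0.00535), and it was also called by DESeq2 (adjusted p = 0.00638). It stayed uncalled in 14 of 17 alternative settings, with an edgeR adjusted p of up to 0.0875 when 1 sample was left out. With the block 3 of the 10 genes were higher and 2 were lower in adenoma, where 18.4% of all genes tested were higher and 19.9% were lower. For sulindac against adenoma the log2 fold change was 0.38 (95% interval -0.02 to 0.79, edgeR adjusted p = 0.132).

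Tnfaip3 encodes A20, an enzyme that removes ubiquitin chains needed for signalling to IKK. Its levels were 18, 21.1 and 30.3 CPM in the MIN samples, 22.3, 20.5 and 20.5 CPM in adenoma and 18.6, 12.9 and 13.6 CPM after sulindac. MIN and adenoma overlapped, with a log2 fold change of -0.13 (95% interval -0.56 to 0.30, edgeR adjusted p = 0.595) whose sign turned when counts were scaled by library size alone. The treated samples were below the untreated adenoma samples, but the log2 fold change of -0.48 did not pass (95% interval -0.84 to -0.12, edgeR adjusted p = 0.0465). Nor did that against MIN (-0.62, 95% interval -1.12 to -0.12, edgeR adjusted p = 0.0345).

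Birc3 encodes cIAP2, a ubiquitin ligase induced by NF-κB that acts at TNF receptors and restrains cell death. It was at 26.2, 26.9 and 23.6 CPM in the MIN samples, 11.8, 8.41 and 10.3 CPM in adenoma and 14.4, 11.3 and 10.9 CPM after sulindac. The MIN samples were all above the others, and adenoma and sulindac overlapped. Birc3 fell by 1.33 on the log2 scale from MIN to adenoma (standard error 0.16, edgeR adjusted p = 0.000137) and was lower in sulindac samples than in MIN (log2 fold change -1.07, standard error 0.14, adjusted p = 0.00017). The call in both comparisons was kept with each sample left out, with DESeq2 and under every other setting tried. Sulindac against adenoma gave 0.27 (95% interval -0.13 to 0.67, edgeR adjusted p = 0.276). Some 7.56% of its 50-base stretches lie in other transcripts, mainly of Gm7019 and of its paralog Birc2. The part of shared reads in the Birc3 values was not tested.

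Icam1 encodes an adhesion molecule by which leukocytes hold on to endothelium and epithelium. It had 26, 16 and 4 counts in MIN (0.632, 0.342 and 0.109 CPM), 300, 299 and 226 counts in adenoma (8.42, 8.35 and 6.53 CPM) and 118, 144 and 104 counts after sulindac (3.93, 4.40 and 3.02 CPM). The 3 groups did not overlap, with sulindac samples between the others. Icam1 rose by 4.40 on the log2 scale from MIN to adenoma (standard error 0.45, edgeR adjusted p = 6.16e-05), and with each sample left out the value stayed between 4.00 and 5.02. After sulindac it was lower than in adenoma by a log2 fold change of -1.03 (standard error 0.20, edgeR adjusted p = 0.00554) and still higher than in MIN by 3.36 (standard error 0.47, adjusted p = 0.000307). The fall with sulindac lost its call when any one of the sulindac samples or adenoma replicates 1 or 2 was left out (edgeR adjusted p from 0.0125 to 0.0260) and in a single model of all 9 samples (adjusted p = 0.0351). An antisense gene, Gm47079, covers 11.7% of the annotated exon bases of Icam1 in GENCODE M21, and without known strand its reads could not be separated.

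Because leukocytes and endothelium also express Icam1, their markers were measured beside it. The summed level of 10 leukocyte markers was 5.02 to 6.70 CPM over MIN samples, 8.35 to 16.8 over adenoma and 3.24 to 4.70 over sulindac samples, and that of 6 endothelial markers was 1.46 to 3.16, 3.06 to 7.95 and 3.75 to 4.80 CPM. Most of the adenoma sums came from Cd68 (284 to 560 counts), which is also found in lysosomes of other cells, and Vwf (95 to 244 counts). The defining leukocyte gene Ptprc had 4 to 8 counts per adenoma sample, 0 to 1 in MIN and 0 after sulindac, while the myeloid gene Itgam fell from 148 to 159 counts per MIN sample to 4 to 13 in adenoma. Of the other endothelial markers, Tek had 2 to 7 counts in MIN, 6 to 25 in adenoma and 3 to 10 after sulindac, Tie1 had 0 to 1, 1 to 12 and 0 to 3, and Pecam1 had 15 to 18, 2 to 4 and 0 to 2. Cdh5 and Kdr had at most 1 count in adenoma and 0 after sulindac. The sum of 8 mesenchymal markers was 3.94 to 4.22 CPM over MIN samples, 1.98 to 2.37 over adenoma and 0.825 to 1.08 over sulindac samples, and its members moved in different directions. Pdgfrb, with 127 to 176 counts, made up most of the sum in MIN and had 0 to 1 count in adenoma. Pdgfra was higher in adenoma, with 25 to 39 counts against 5 to 8 (log2 fold change 2.49, edgeR adjusted p = 0.000492), and Col1a1 had 32 to 54 counts against 10 to 22 (adjusted p = 0.0101, edgeR). The part of these markers in the Icam1 values was not tested. Summed epithelial markers were lower in every adenoma and every sulindac sample than in any MIN sample. Within the sum Krt18 went the other way, with means of 551, 921 and 1234 CPM in MIN, adenoma and sulindac samples. The part of epithelial markers in the differences of the NF-κB genes was not tested either.

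Tnfrsf12a encodes Fn14, the receptor for TWEAK and a route to non-canonical signalling. It was at 34.2, 32.5 and 66.2 CPM in the MIN samples, 42.5, 43.2 and 63.3 CPM in adenoma and 70.8, 73.2 and 83.2 CPM after sulindac. In all 3 groups replicate 3 was highest, and every sulindac sample was above every other sample. The log2 fold change was 0.62 for sulindac against adenoma (95% interval 0.26 to 0.98, edgeR adjusted p = 0.0172) and 0.77 for sulindac against MIN (95% interval 0.19 to 1.36, edgeR adjusted p = 0.0266), so neither was called. Both passed in DESeq2 (adjusted p = 0.0015 and 0.00337), and leaving out replicate 3 of the reference group gave 0.82 without adenoma replicate 3 (edgeR adjusted p = 0.000865) and 1.18 without MIN replicate 3 (edgeR adjusted p = 5.83e-06). They stayed uncalled in 10 of 15 and 13 of 17 alternative settings. With other samples left out their edgeR adjusted p reached 0.0718 and 0.0966. Adenoma against MIN gave 0.17 (95% interval -0.48 to 0.82, edgeR adjusted p = 0.647). Tnfsf12, the gene of its ligand TWEAK, had 11 to 14 counts in the MIN samples, 0 to 2 in adenoma and 1 to 2 after sulindac, and was too low to be tested.

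MIN replicate 3 held the highest MIN value for 5 of the 10 genes, namely Relb, Nfkb2, Nfkbia, Tnfaip3 and Tnfrsf12a, and the lowest for Nfkb1, Birc3 and Icam1. Of these, Nfkb2, Nfkbia, Relb and Tnfrsf12a were also highest in adenoma replicate 3. Of the 10 genes, Nfkb2 and Nfkbia were the ones whose call between adenoma and MIN changed with the replicate block.

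**Figure D3:**
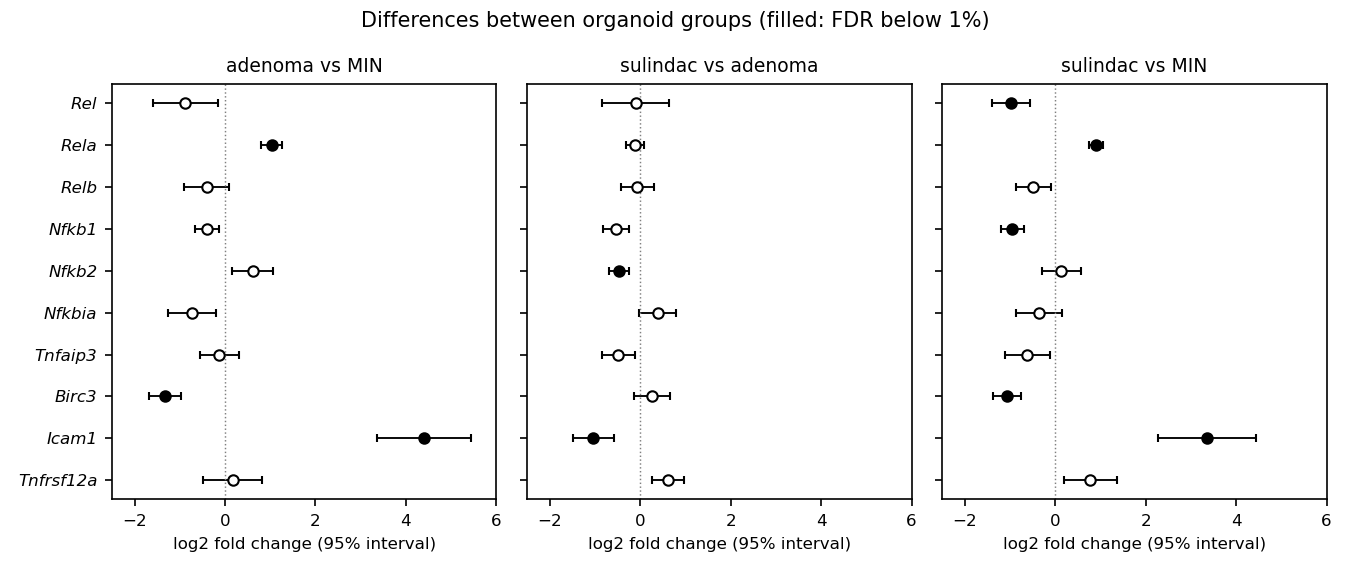
Log2 fold change (x-axis) of each NF-κB gene (y-axis) in the 3 comparisons, with the 95% interval from edgeR's quasi-likelihood fit. Filled points passed an FDR of 1%. Icam1 is 4.40 higher in adenoma than in MIN and -1.03 after sulindac, Rela is 1.03 higher in adenoma, and Birc3 is lower in both comparisons with MIN.

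Another 89 genes of the pathway, listed by role, were read in the same fits. Beside the list counts below, 18.5% of all genes tested were higher and 20.1% lower in adenoma against MIN. These shares were 8.32% and 9.10% in sulindac against adenoma and 23.0% and 26.8% in sulindac against MIN. Of 14 inhibitors and IκB-like regulators, 12 could be tested. Between adenoma and MIN 2 were higher (Tnip2 and Nfkbie) and 2 were lower (Nfkbiz and Tax1bp1), with a median log2 fold change of -0.21. Nfkbie, which encodes IκBε, was at 2.93 ± 0.156, 5.41 ± 0.706 and 1.72 ± 0.471 CPM in MIN, adenoma and sulindac samples (SD, n = 3). It was the single regulator of this list that was higher in adenoma (log2 fold change 0.89, edgeR adjusted p = 0.00524) and lower after sulindac (-1.65, edgeR adjusted p = 0.00181). Tax1bp1, an adaptor of A20, changed the other way, lower in adenoma (-0.66, edgeR adjusted p = 0.000858) and higher after sulindac (0.50, edgeR adjusted p = 0.00357). Between sulindac and MIN, Tnip2 and Cyld were higher and Nfkbid and Bcl3, IκB-like proteins of the nucleus, were lower.

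Of 25 signal transducers, 24 could be tested. Between adenoma and MIN 2 were higher and 4 were lower, between sulindac and adenoma 3 were higher and 1 was lower, and between sulindac and MIN 5 were higher and 3 were lower. The median log2 fold changes were -0.02, 0.07 and 0.12, against -0.01, -0.01 and -0.03 over all genes tested. Among the kinases at the centre of the pathway, Chuk (IKKα) was at 108.6 ± 5.88, 106.0 ± 9.20 and 175.6 ± 4.54 CPM in MIN, adenoma and sulindac samples (SD, n = 3), and Ikbkg (NEMO, the regulatory subunit) at 60.2 ± 3.27, 78.3 ± 8.81 and 147.5 ± 10.7 CPM. Both were higher after sulindac than in adenoma, by 0.74 and 0.92 on the log2 scale (edgeR adjusted p = 0.00127 and 0.00104), as was Tab2. Ikbkb (IKKβ) gave -0.06 in that comparison (adjusted p = 0.654, edgeR). The scaffold Card10 and the paracaspase Malt1, which works with it, were higher in adenoma than in MIN by 0.72 and 0.91 (edgeR adjusted p = 0.000508 and 0.000162). Myd88, the adaptor of IL-1 and Toll-like receptors, and Tradd, the adaptor of the TNF receptor, were lower in adenoma (-1.10 and -0.74, edgeR adjusted p = 0.00128 and 0.00185).

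Of 20 ligands and receptors, 12 could be tested between adenoma and MIN, where 3 were higher and 5 were lower (median 0.01). The receptor Il1r1 had 1 to 9 counts per MIN sample, 73 to 131 in adenoma and 52 to 106 after sulindac, a log2 fold change of 4.63 in adenoma (standard error 0.53, edgeR adjusted p = 0.000116). Its co-receptor Il1rap was lower, at 11.4 ± 0.799, 1.34 ± 0.138 and 1.35 ± 0.0232 CPM in the same order (SD, n = 3). Eda2r, a receptor of the TNF family, was at 4.84 ± 1.80, 86.8 ± 14.4 and 68.0 ± 5.76 CPM and was higher in both comparisons with MIN. Ltb, which encodes lymphotoxin beta, had 2 to 3 counts in MIN, 40 to 86 in adenoma and 1 to 3 after sulindac, higher in adenoma (edgeR adjusted p = 8.08e-05) and lower after sulindac (edgeR adjusted p = 0.000565). Its receptor Ltbr was at 124.0 ± 8.91, 88.1 ± 8.23 and 121.9 ± 8.69 CPM, lower in adenoma (-0.49) and higher after sulindac (0.48). Between sulindac and adenoma 3 of 10 tested were higher, Tnfrsf21, Ltbr and Tnfrsf1a, the last the main receptor for TNF, and 1 was lower. Tnf itself was at 1.19 ± 0.911, 3.54 ± 0.968 and 1.45 ± 0.482 CPM, with log2 fold changes of 1.59 in adenoma against MIN (edgeR adjusted p = 0.0248) and -1.28 after sulindac (edgeR adjusted p = 0.0136) that did not pass. Between sulindac and MIN 4 of 11 were higher and 4 were lower. Cd40 had 25 to 29 counts in MIN, 1 to 2 in adenoma and 0 in every sulindac sample. It was already lower in untreated adenoma than in MIN (edgeR adjusted p = 0.000122). Between sulindac and MIN it was at least 7.23-fold lower against a floor of 3 counts per library.

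Of 30 other target genes, 18 could be tested between adenoma and MIN, with a median of 0.42. Among them 5 were higher and 5 lower, where 18.5% of all genes tested were higher and 20.1% lower. The survival gene Bcl2l1 (BCL-XL) was at 38.0 ± 2.22, 178.8 ± 13.6 and 312.1 ± 35.9 CPM in MIN, adenoma and sulindac samples (SD, n = 3). It was higher in all 3 comparisons, by 2.24 in adenoma, a further 0.81 after sulindac (edgeR adjusted p = 0.00143) and 3.04 between the ends. Plau, the urokinase gene, rose in adenoma by 3.55 on the log2 scale from 6 to 9 counts per MIN sample. The chemokine gene Cxcl1 had 2 to 6 counts in MIN, 14 to 21 in adenoma and 2 to 4 after sulindac, and was higher in adenoma and lower after sulindac (edgeR adjusted p = 0.00447 and 0.00701). Pigr, which encodes the receptor that carries IgA across the epithelium, was lower in both comparisons with MIN, at 2411 ± 251.9, 3.10 ± 1.51 and 1.10 ± 0.971 CPM in MIN, adenoma and sulindac samples (SD, n = 3). Nos2 had 315 to 620 counts in MIN, 0 to 3 in adenoma and 0 to 1 after sulindac. Ptgs2, the gene of cyclooxygenase 2, had 20 to 29 counts in MIN and 0 in every other sample, at least 6.88-fold lower in adenoma and at least 6.28-fold lower after sulindac. Between sulindac and adenoma 2 of 14 were higher, Cxcl16 and Bcl2l1, and 1 was lower (median -0.20). Between sulindac and MIN 5 of 16 were higher and 4 were lower (median 0.13). Targets differed in both directions, as genes at large did, and none of the list medians moved when Cd40 and Ptgs2 were set at these bounds.

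**Figure D4:**
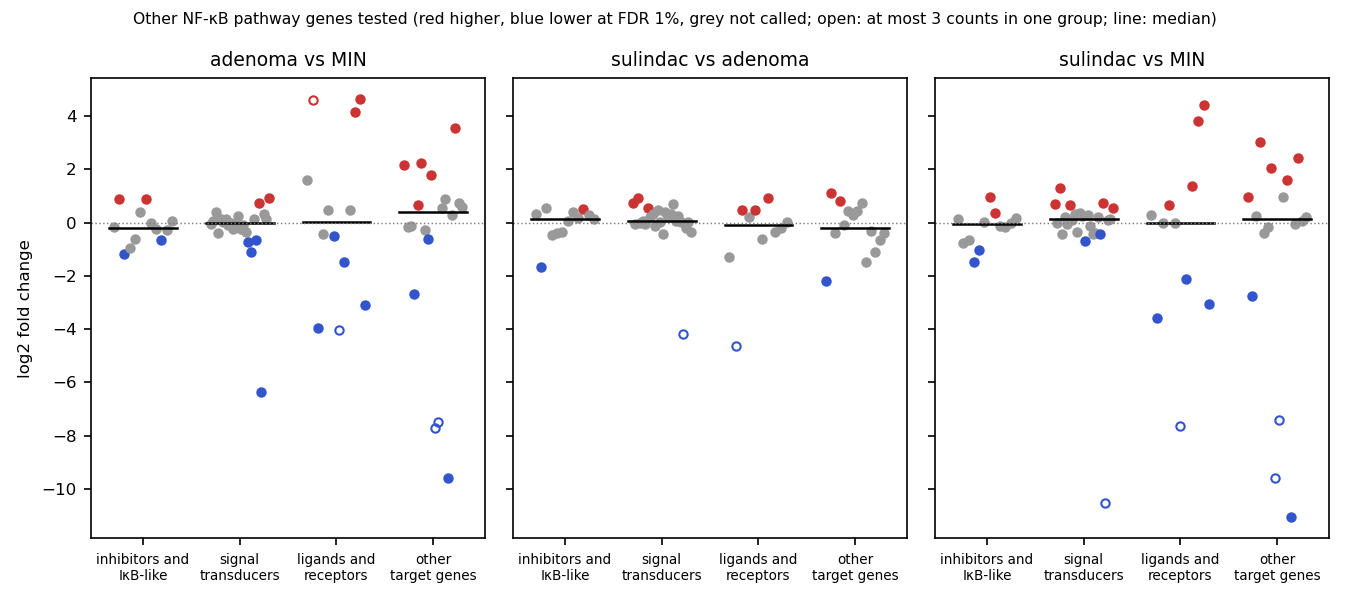
Log2 fold change (y-axis) of the other NF-κB pathway genes that could be tested, by role (x-axis), in the 3 comparisons. Each point is a gene, red where higher and blue where lower at an FDR of 1%, grey where not called, open where one group had at most 3 counts per sample (fitted values of these depend on the model), and the line is the median. Calls lie on both sides of 0 in every list, and the medians stay between -0.21 and 0.42.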

How the data were processed

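RNA was sequenced from 9 organoid samples, 3 each of MIN, adenoma and sulindac-treated adenoma. The authors deposited 1 table of raw counts per gene symbol, without normalization. The submitters' processing notes name RSEM, Bowtie2 2.2.4 and the mm9 build, with no role or order, and the annotation and strand setting are not given in the sources used here. MIN replicate 1 has 3 columns, and the third is the sum of its 2 runs in every row. Per gene, the chi-square between the runs was 1.19, where replicates of a group gave 17.7 to 77.8, and the sum was used as 1 sample. In 27 rows the symbol had become a date (0.180% to 0.205% of counts). No column was left unused.

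Counts were filtered with filterByExpr, normalized by TMM (factors 0.933 to 1.10) and compared with the quasi-likelihood test of edgeR 4.0.16 in R 4.3.3 (glmQLFit with robust estimation), on the 2 groups compared, at an FDR of 1%. Standard errors are the log2 fold change over the square root of F, and 95% intervals use the degrees of freedom of the fit. The code was tested on simulated data.

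Samples of MIN and adenoma with the same number deviated together from their group means. Their correlation across genes was 0.113 to 0.192 in all 3 pairs and -0.149 to 0.0685 between different numbers. Of the latter, those between replicates 1 and 2 were positive (0.0534 and 0.0685), and all with a replicate 3 were negative. Deviations from a group mean cancel out within the group for each gene. A positive value for the same number therefore lowers the values between different numbers, and the ranges are not independent. The main fits held group only, without pairing. The replicate number was used as a block in an alternative setting of each comparison, from the data and not from the labels. Whether the number marks a shared animal was not tested. In the comparisons with sulindac 2 of 3 pairs exceeded 0.1, at higher values than these. They were 0.253 and 0.208 against adenoma and 0.396 and 0.252 against MIN, with -0.0740 and -0.0303 for the remaining pair.

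The 10 genes and all lists were chosen with earlier results of these data known. Each of the 10 is given in every sample. Pathway genes are named by rule, from the 3 largest changes in each direction per list and comparison that passed without overlap between groups. Ikbkb, Tnf and Tnfsf12, and Ltbr in the comparison of adenoma with MIN, were named after their values were seen. One gene that the rule names is not reported here. Sequence sharing, lengths and overlaps come from GENCODE M21, and promoters from RefSeq on GRCm38.p6, which is not the mm9 build named for the counts.

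Alternatives were RLE size factors, the replicate block, DESeq2 1.42.0, scaling by library size only, every gene kept, a minimum of 10 counts per sample, 1 model of all 9 samples, an FDR of 5%, a 2-fold minimum, leaving out each sample, each run of MIN 1, counts not divided by length and other motifs. The 9-letter motif was added after seeing the data.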

Additional observations from a re-analysis of the deposited data

How the results depend on the processing

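Of 488 values of the 10 genes under an alternative, 431 kept their direction and side of the threshold, 30 newly passed it, 19 no longer passed it and 8 reversed. The calls of Rela, Birc3 and Icam1 between adenoma and MIN were kept wherever the gene was tested and the fold minimum was met. Values that reversed were all uncalled. They were Tnfaip3 in adenoma against MIN (0.0082 with library size alone, and -0.29 to 0.11 with each sample left out), and, with samples left out, Tnfrsf12a in adenoma against MIN (-0.042 without adenoma replicate 3, -0.015 without MIN replicate 2, range -0.042 to 0.57), Rel in sulindac against adenoma (0.11 and 0.059 without adenoma replicates 1 and 2, range -0.40 to 0.11), Relb there (-0.16 to 0.14, the latter without adenoma replicate 3) and Nfkb2 in sulindac against MIN (-0.040 to 0.39, the former without MIN replicate 1).

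Of the 10 genes, adenoma against MIN had 1 higher with at least 10 counts in every sample (Icam1 was not tested there), against 16.9% of all genes. Lower ones numbered 2 with the replicate block, 3 with DESeq2 and 4 at an FDR of 5%, where 19.9%, 23.6% and 26.7% of all genes tested were lower. Sulindac against adenoma had 1 higher without the filter, with the replicate block, with DESeq2 and at an FDR of 5% (Tnfrsf12a), against 7.15%, 6.73%, 13.7% and 15.7% of all genes, and lower ones numbered 1 in a single fit of all samples and with a 2-fold minimum, and 4 at an FDR of 5%, against 9.83%, 5.42% and 18.3%. With each sample left out it had 0 to 1 higher and 0 to 3 lower, against 3.21% to 10.7% and 2.93% to 11.3% of all genes. Sulindac against MIN had 1 higher with at least 10 counts and with a 2-fold minimum (22.2% and 11.1% of all genes), and 5 lower at an FDR of 5% and 1 with the fold minimum (33.3% and 15.5%). With the replicate block, sulindac against adenoma called Nfkb1 (adjusted p = 0.00853) and Tnfrsf12a (log2 fold change 0.64, edgeR adjusted p = 0.00714) and lost Nfkb2 (adjusted p = 0.0191), sulindac against MIN called Tnfrsf12a (log2 fold change 0.85, adjusted p = 0.00424), and all genes called in sulindac against adenoma numbered 872 higher and 1061 lower. The labels do not say what the numbers share. In each comparison with sulindac 4 of 6 samples correlated best with their own number, against 6 of 6 between adenoma and MIN.

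Over all genes, sulindac against adenoma gave 603 higher and 1983 lower with library size alone (23.3% higher, against 47.8%), 1778 higher with DESeq2, 2034 and 2374 at an FDR of 5%, 365 and 703 with the fold minimum (34.2% higher), and 423 to 1403 higher and 386 to 1488 lower with each sample left out. Sulindac against MIN gave 1501 and 2104 with the fold minimum. Library size alone moved the median of all genes to 0.12 in adenoma against MIN and to -0.18 in sulindac against adenoma. In the main fits the lists, in the order above, had 2, 2, 3 and 5 genes higher in adenoma against MIN. In sulindac against MIN they had 2, 5, 4 and 5. The genes tested per list numbered 12, 24, 12 and 18 in adenoma against MIN and 12, 24, 11 and 16 in sulindac against MIN. In sulindac against adenoma they numbered 12, 24, 10 and 14. The same genes were tested with library size alone, DESeq2, an FDR of 5% and the fold minimum. With the fold minimum, pathway genes called higher numbered 7 in adenoma against MIN, where 12.5% of all genes were higher (18.5% without it). In sulindac against MIN they numbered 8, where 11.1% were higher (23.0% without it). In sulindac against adenoma pathway genes numbered 4 higher and 8 lower with library size alone, 14 and 7 with DESeq2, and 14 and 10 at an FDR of 5%. The shares of all genes were 4.65% and 15.3%, 13.7% and 13.6%, and 15.7% and 18.3%. There were 5 higher with the block (6.73% of all genes), 1 higher with the fold minimum (2.82%) and 1 lower with at least 10 counts (8.65%). When samples were left out, 4 to 12 were higher and 2 to 5 lower, against 3.21% to 10.7% and 2.93% to 11.3% of all genes. Of 15 subunit shares, 14 moved by more than their SD without division by length. The causes were not tested. Depth limits Icam1 in MIN most, at 4 to 26 counts.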
